A study of Arabidopsis thaliana with 24 samples.

Results

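The ATG8 gene family of Arabidopsis thaliana was followed across 8 groups of whole plants measured on ATH1 arrays. Its 9 members, ATG8A to ATG8I, were chosen by locus, and all 9 had a probe set that the array annotation assigns to a single gene, out of 13286 loci with such a probe set. ATG8A is AT4G21980, ATG8B is AT4G04620, ATG8C is AT1G62040, ATG8D is AT2G05630, ATG8E is AT2G45170, ATG8F is AT4G16520, ATG8G is AT3G60640, ATG8H is AT3G06420 and ATG8I is AT3G15580. ATG8A and ATG8I carried the older symbols APG8A and APG8H in the annotation and were matched through their gene identifiers. Each member had 1 probe set.

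ATG8 is a small ubiquitin-like protein that is attached to the lipid phosphatidylethanolamine on the growing autophagosome, the double membrane that encloses cytoplasm and carries it to the vacuole for breakdown. The protease ATG4 first trims ATG8 to expose a terminal glycine, ATG7 and ATG3 then act as the activating and conjugating enzymes, and the bound ATG8 recruits cargo receptors such as NBR1. In Arabidopsis the family falls into a larger clade, ATG8A to ATG8G, and a smaller one, ATG8H and ATG8I, whose proteins already end in the glycine. Autophagy recycles nutrients in starved and senescing leaves and operates during plant immune responses, and several ATG8 transcripts are known to accumulate in such states.

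The tested plants were the double knockout mkk1/mkk2 and the single knockouts mkk2 (line Garlic_511-HO1) and mkk1 (line SALK_027645), set against the wild type Col-0. MKK1 and MKK2 are mitogen-activated protein kinase kinases that act between MEKK1 and MPK4. Each genotype was sampled 24 h after BTH (benzothiadiazole, a functional analogue of the defence hormone salicylic acid) and without treatment, with 3 arrays in each of the 8 groups. All plants grew in soil with short days of 8 h light at 21 °C and 16 h dark at 16 °C. A BTH spray of 100 µM is recorded for 6 of the BTH arrays, those of mkk2 and mkk1/mkk2. The treatment notes of the other 18 arrays, which include the 6 BTH arrays of Col-0 and mkk1, name a control treatment, and the description field calls every sample untreated Col-0. The groups used here follow the sample titles. Untreated Col-0 is titled as time 0 and the untreated mutants carry no time, and no group is labelled as sprayed with a mock solution. Nothing in the labels says that replicates came from separate plants, so the p-values measure the spread between these samples. The insertion lines could not be checked through MKK1 and MKK2, which had no single-gene probe set in this annotation.

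The deposited values are RMA values, on a log2 scale, so that a difference of 1 is a doubling of signal. They ran between 2.27 and 14.14, and the array medians lay between 5.57 and 5.78. Of the 24 arrays, 3 stood apart from their own group, namely replicate A of untreated mkk1/mkk2 (mean correlation with its group 0.933), replicate A of Col-0 after BTH (0.975) and replicate B of untreated mkk2 (0.976), while the highest such mean was 0.994. The hybridization controls bioC and bioD split the arrays by genotype. Their log2 difference was -3.82 to -3.54 on the 12 mkk1 and mkk2 arrays and -2.50 to -2.01 on the 12 mkk1/mkk2 and Col-0 arrays, so that this difference between arrays and the single mutant genotypes cannot be told apart when a single mutant is set against Col-0. The RNA came from whole plants, and fewer cells of a type and less RNA per cell cannot be told apart in it.

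For ATG8A, ATG8B, ATG8D and ATG8E the 6 mkk1/mkk2 arrays lay above the other 18. ATG8A lay between 9.93 and 10.56 (median 10.25) on the 6 mkk1/mkk2 arrays and between 7.97 and 9.85 (median 8.57) on the other 18. ATG8B lay between 8.98 and 10.47 on the mkk1/mkk2 arrays and between 6.58 and 7.96 elsewhere. ATG8D lay between 8.35 and 8.96 on the mkk1/mkk2 arrays, against 6.29 to 8.08 elsewhere. ATG8E completed the set of genes whose 6 mkk1/mkk2 arrays were all above the other 18, at 10.11 to 10.62 against 8.15 to 9.63. The 6 arrays overlapped the other 18 for ATG8C, ATG8F, ATG8G, ATG8H and ATG8I. How many of all probe sets separate in this way was not counted, here or for the pairs of groups compared below. Separation and overlap of arrays are therefore given only as descriptions of these genes. Untreated mkk1/mkk2 had the highest group mean for ATG8A to ATG8G and mkk1/mkk2 after BTH had it for ATG8H and ATG8I, while the lowest mean belonged to untreated mkk1 or untreated mkk2 for every member except ATG8E, which was lowest in untreated Col-0.

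**Figure D1:**
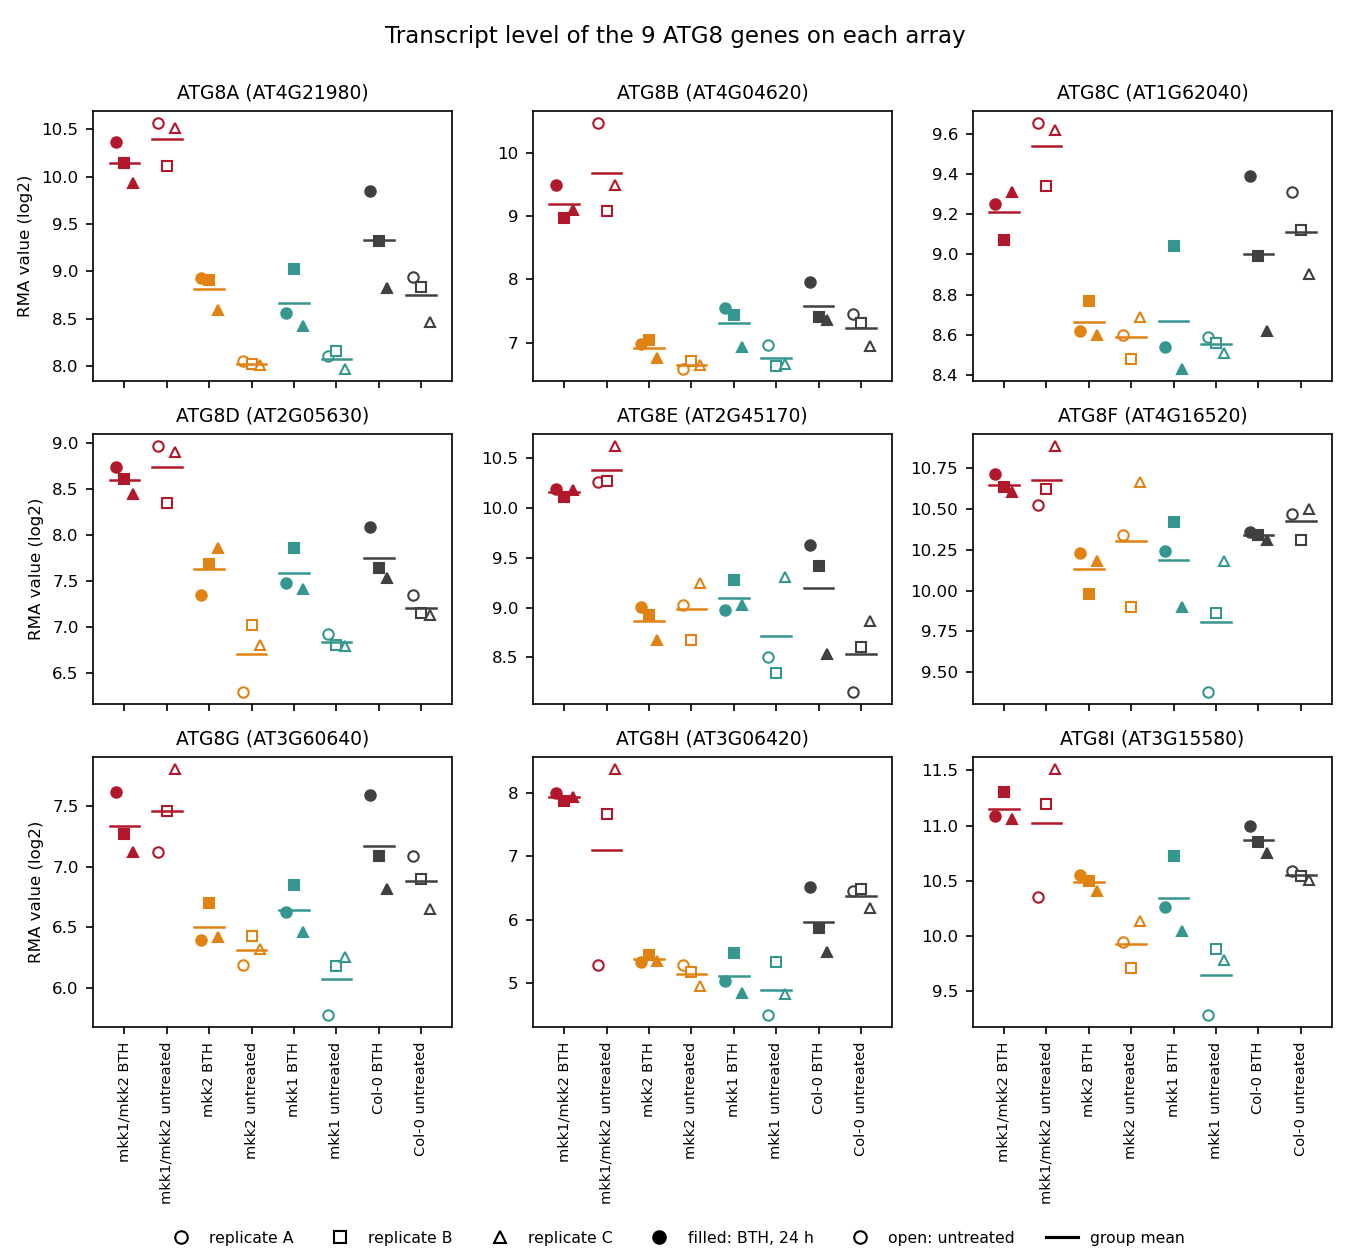
RMA value (log2) of each of the 9 ATG8 genes on each of the 24 arrays, by group, with circles, squares and triangles for replicates A, B and C, filled symbols for BTH, open symbols for no treatment and a line at each group mean. For ATG8A, ATG8B, ATG8D and ATG8E the 6 mkk1/mkk2 arrays lie above the other 18, and the vertical scale differs between genes. How many of all probe sets separate in this way was not counted.

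The comparison of untreated mkk1/mkk2 with untreated Col-0 asks which ATG8 transcripts differ when both kinases are missing and nothing has been applied. ATG8A, ATG8B, ATG8D, ATG8E and ATG8G were higher in the double mutant, by between 1.49-fold for ATG8G and 5.44-fold for ATG8B. ATG8A had values of 10.56, 10.11 and 10.51 in untreated mkk1/mkk2, against 8.94, 8.84 and 8.47 in untreated Col-0. ATG8B had 10.47, 9.08 and 9.49 in mkk1/mkk2, against 7.46, 7.31 and 6.94 in Col-0. The groups did not overlap for either gene, and the highest ATG8B value among all 24 arrays was that of mkk1/mkk2 replicate A. ATG8D had 8.96, 8.35 and 8.90 in mkk1/mkk2, against 7.34, 7.15 and 7.13 in Col-0. ATG8E had 10.26, 10.27 and 10.62 in mkk1/mkk2, against 8.15, 8.60 and 8.86 in Col-0. All 3 double mutant arrays again exceeded all 3 Col-0 arrays for both genes.

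In the linear model fitted with limma, ATG8B was higher by 2.44 ± 0.26 on the log2 scale (SE; 95% confidence interval 1.89 to 2.99, adjusted p = 4.48e-07). ATG8A was higher by 1.64 ± 0.21 (3.12-fold, adjusted p = 4.19e-06). ATG8E was higher by 1.85 ± 0.26 (3.60-fold, adjusted p = 1.41e-05). These changes, with that of ATG8D at 1.53 ± 0.20 (2.89-fold, adjusted p = 4.83e-06), were larger than the changes of 95.3% to 98.1% of all probe sets. ATG8G, a member of the same clade, was higher by 0.58 ± 0.20 (adjusted p = 0.0323), with 7.12, 7.46 and 7.80 in mkk1/mkk2 against 7.09, 6.90 and 6.65 in Col-0. Its groups did not overlap, but the lowest mkk1/mkk2 array exceeded the highest Col-0 array by little. The ATG8G call was lost in 6 of 31 alternative settings, with an adjusted p of up to 0.163.

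The remaining members did not pass the test in this comparison. ATG8C was higher on average by 0.43 (95% interval 0.07 to 0.79, adjusted p = 0.0642), with 9.65, 9.34 and 9.62 in mkk1/mkk2 against 9.31, 9.12 and 8.90 in Col-0. ATG8F differed by 0.25 (interval -0.15 to 0.64, adjusted p = 0.362) and its group means ran from 9.81 in untreated mkk1 to 10.67 in untreated mkk1/mkk2. The mkk1/mkk2 and Col-0 arrays did not overlap for ATG8C or ATG8F either, though neither was called. For ATG8H and ATG8I, the small clade, a single array parted from the other two. ATG8H had 5.28, 7.67 and 8.37 in mkk1/mkk2, against 6.45, 6.49 and 6.19 in Col-0. ATG8I had 10.35, 11.20 and 11.51 in mkk1/mkk2, against 10.59, 10.54 and 10.51 in Col-0. Both genes were below every Col-0 array on replicate A of the double mutant and above every Col-0 array on replicates B and C. The changes with all arrays were 0.73 for ATG8H (interval -0.27 to 1.73, adjusted p = 0.277) and 0.47 for ATG8I (interval 0.00 to 0.94, adjusted p = 0.121).

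**Figure D2:**
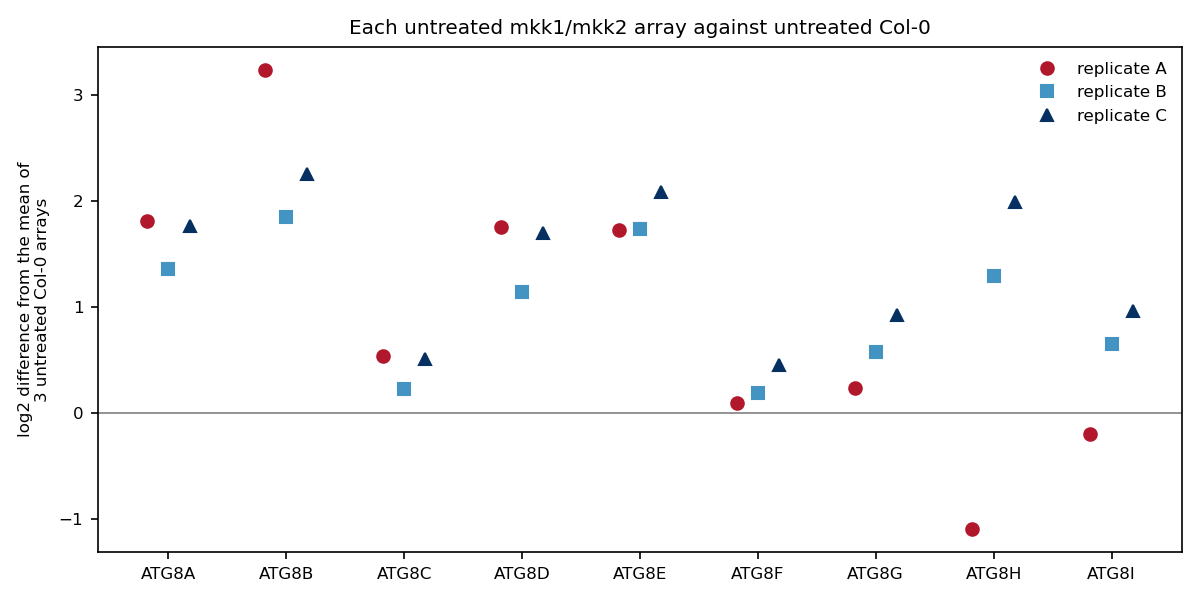
Difference of each untreated mkk1/mkk2 array from the mean of the 3 untreated Col-0 arrays (log2), for each ATG8 gene, with circles for replicate A, squares for B and triangles for C. Replicate A lies below 0 for ATG8H (-1.10) and ATG8I (-0.20) and is the highest of the 3 for ATG8B (3.23), while replicates B and C are above 0 for all 9 genes.

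In all, 5 of 9 members were called higher and 0 lower in untreated mkk1/mkk2, where 16.1% of all tested probe sets were called higher. All 9 changes were above 0, as were 49.1% of those of all probe sets, and the median change was 0.73 for the members and -0.01 for all probe sets. Replicate A of untreated mkk1/mkk2, one of the 3 arrays that stood apart, decided the calls of ATG8H and ATG8I. Without it 7 of 9 members were called, ATG8H at 1.64 (adjusted p = 6.32e-05) and ATG8I at 0.81 (adjusted p = 0.00193), ATG8B stood at 2.05, and the median change was 1.42. On that array the log2 difference between the 3-prime and 5-prime GAPDH probe sets, a measure of RNA quality, was 1.27, against 0.86 and 0.29 on replicates B and C and 0.70 to 1.18 in untreated Col-0. With that difference as a covariate the same 5 members were called, ATG8G at 0.56 (adjusted p = 0.0383), and ATG8H and ATG8I were not, at 0.59 and 0.44 (adjusted p = 0.274 and 0.137). The calls of ATG8A, ATG8B, ATG8D and ATG8E were kept in all 31 settings.

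After BTH the same question was asked of treated plants. ATG8H, at 3.92-fold, and ATG8B, at 3.06-fold, were the members furthest above Col-0, and ATG8A, ATG8D and ATG8E were higher by between 1.75-fold and 1.95-fold. ATG8H had 7.99, 7.87 and 7.93 in mkk1/mkk2 after BTH, against 6.52, 5.87 and 5.49 in Col-0 after BTH. ATG8B had 9.49, 8.98 and 9.10 in mkk1/mkk2, against 7.96, 7.41 and 7.36 in Col-0. The groups did not overlap for either gene, and the ATG8H arrays of mkk1/mkk2 lay close together. ATG8A had 10.36, 10.14 and 9.93 in mkk1/mkk2, against 9.85, 9.32 and 8.83 in Col-0. ATG8D had 8.74, 8.61 and 8.44 in mkk1/mkk2, against 8.08, 7.64 and 7.53 in Col-0. ATG8E had 10.19, 10.11 and 10.18 in mkk1/mkk2, against 9.63, 9.42 and 8.53 in Col-0. For these genes the SD of Col-0 was above that of mkk1/mkk2, with replicate A of Col-0 always the highest of its group.

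The change of ATG8H was 1.97 ± 0.48 (interval 0.97 to 2.97, adjusted p = 0.00478) and that of ATG8B was 1.61 ± 0.26 (adjusted p = 0.000127). ATG8E was higher by 0.97 ± 0.26 (adjusted p = 0.0108), ATG8D by 0.85 ± 0.20 (adjusted p = 0.00370) and ATG8A by 0.81 ± 0.21 (adjusted p = 0.00797). ATG8F, ATG8I, ATG8C and ATG8G were not called, with changes of 0.31, 0.28, 0.21 and 0.17 and adjusted p values of 0.287 to 0.647. Thus 5 of 9 members were called higher and 0 lower, where 11.4% of all probe sets were called higher, and the median change was 0.81 for the members and -0.05 for all probe sets. Without replicate C of Col-0 after BTH, 3 members were called, and ATG8A and ATG8E were not (highest adjusted p 0.0639 and 0.0754 over the 31 settings), while ATG8B, ATG8D and ATG8H were called in all 31. GAPDH 3-prime minus 5-prime was 0.14 to 0.52 in mkk1/mkk2 after BTH, against 0.60 to 0.73 in Col-0 after BTH, and with it as a covariate the count was again 5.

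**Figure D3:**
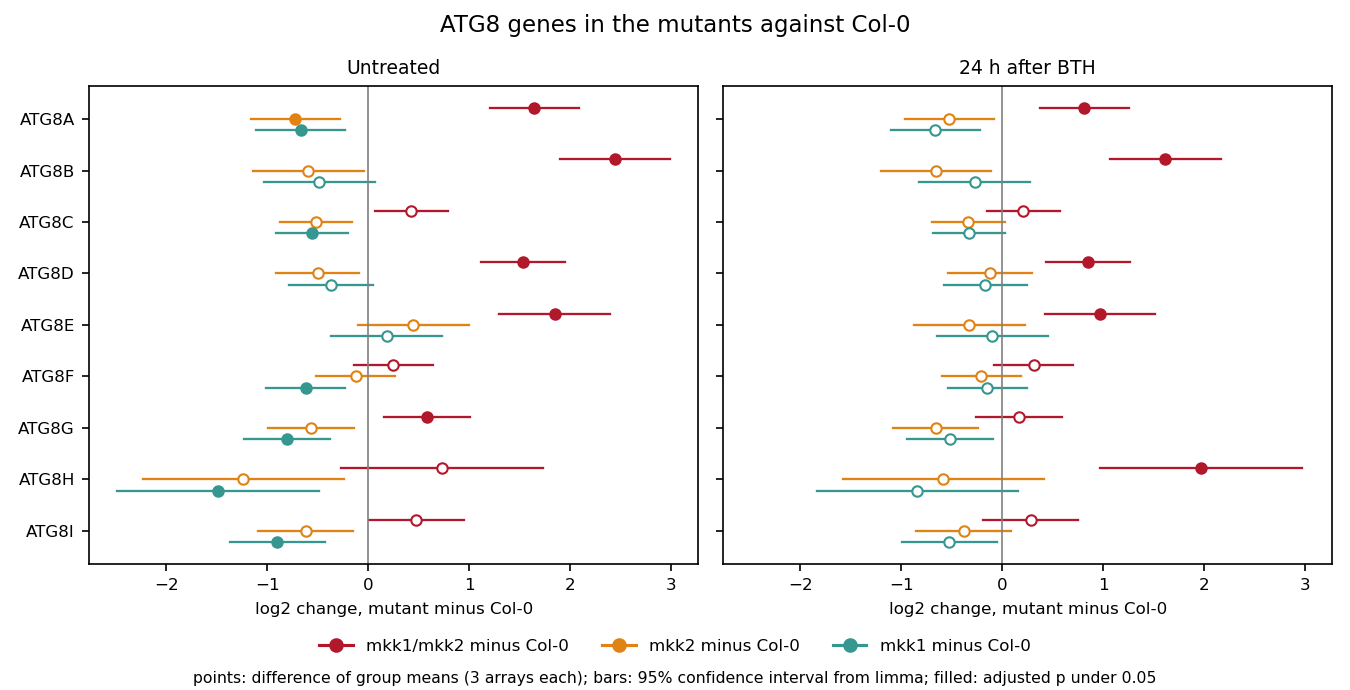
Log2 change of each ATG8 gene in each mutant against Col-0, untreated (left) and 24 h after BTH (right). Points are differences of group means of 3 arrays, bars are 95% confidence intervals from limma and filled points have an adjusted p under 0.05. All 9 mkk1/mkk2 points lie above 0 in both panels, and all mkk1 and mkk2 points lie below 0 except those of ATG8E in untreated plants.

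The single mutants were compared with Col-0 in the same way. In untreated mkk1, ATG8A, ATG8C, ATG8F, ATG8G, ATG8H and ATG8I were lower than in untreated Col-0, and ATG8H and ATG8I changed most. ATG8H had 4.50, 5.33 and 4.83 in mkk1, against 6.45, 6.49 and 6.19 in Col-0. ATG8I had 9.28, 9.88 and 9.78 in mkk1, against 10.59, 10.54 and 10.51 in Col-0. ATG8G had 5.78, 6.18 and 6.26 in mkk1, against 7.09, 6.90 and 6.65 in Col-0. The 2 groups did not overlap for any of these genes. ATG8H fell by 1.49 ± 0.48 (interval -2.49 to -0.49, adjusted p = 0.0369), ATG8I by 0.90 ± 0.23 (adjusted p = 0.00951) and ATG8G by 0.81 ± 0.20 (adjusted p = 0.00966). ATG8A (8.11, 8.16 and 7.97 in mkk1, against 8.94, 8.84 and 8.47 in Col-0), ATG8F and ATG8C had changes of -0.67, -0.62 and -0.56, with adjusted p values of 0.0337, 0.0276 and 0.0309. ATG8B at -0.49, ATG8D at -0.37 and ATG8E at 0.18 were not called (adjusted p = 0.237, 0.234 and 0.740), although the groups did not overlap for ATG8D either.

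The count for untreated mkk1 was therefore 6 of 9 lower and 0 higher, where 7.83% of all probe sets were called lower, with a median change of -0.62 for the members and 0.00 for all probe sets. This count depended on single arrays. It was 0 without replicate A of untreated mkk1, 1 without replicate A of untreated Col-0, and 3 without replicate B of untreated Col-0, replicate B of untreated mkk1 or replicate C of untreated mkk1. GAPDH 3-prime minus 5-prime was 0.26 to 0.31 in untreated mkk1 and 0.70 to 1.18 in untreated Col-0, with no overlap. With that difference as a covariate 3 members were called, ATG8G at -0.99, ATG8H at -2.51 and ATG8I at -1.16 (adjusted p = 0.0163, 0.00501 and 0.0112).

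Untreated mkk2 was set against the same untreated Col-0 arrays, which both single mutants share as their control. ATG8A had 8.05, 8.02 and 8.01 in mkk2, against 8.94, 8.84 and 8.47 in Col-0, and fell by 0.72 ± 0.21 (adjusted p = 0.0415). It was the only call, so that 1 of 9 members was lower where 4.13% of all probe sets were, and that call was lost in 14 of 31 settings. ATG8H had 5.29, 5.17 and 4.96 in mkk2, none as high as the lowest Col-0 array, with a change of -1.24 (interval -2.24 to -0.24, adjusted p = 0.123). ATG8I at -0.62, ATG8B at -0.60, ATG8G at -0.57, ATG8C at -0.52 and ATG8D at -0.50 had adjusted p values of 0.0704 to 0.185. ATG8F at -0.13 and ATG8E at 0.45 had adjusted p values of 0.766 and 0.344. The median change was -0.57, 7 members were lower at an unadjusted p under 0.05, and 5 were called without replicate A of untreated mkk1/mkk2, an array that enters this comparison only through the shared estimate of spread. GAPDH 3-prime minus 5-prime was 0.30 to 0.61 in untreated mkk2, below the 0.70 to 1.18 of untreated Col-0, and its part in the result was not tested except as the covariate, with which ATG8A was not called (adjusted p = 0.104) and ATG8H was, at -1.96 (adjusted p = 0.0182).

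After BTH no ATG8 gene differed from Col-0 at an adjusted p under 0.05 in either single mutant. In mkk1, 0 of 9 members were called, where 0.620% of all probe sets were called in either direction, and 3 were lower at an unadjusted p under 0.05. Changes ran from -0.84 for ATG8H to -0.10 for ATG8E, and the lowest adjusted p was 0.129, for ATG8A at -0.66 (interval -1.10 to -0.22). In mkk2, 0 of 9 were called, where 1.83% of all probe sets were, and 3 were lower at an unadjusted p under 0.05. For 9 members a count of 0 is close to the share in both comparisons. There the changes ran from -0.66 for ATG8G and ATG8B to -0.12 for ATG8D, and the lowest adjusted p was 0.0968, for ATG8G. ATG8G had 6.40, 6.70 and 6.42 in mkk2 after BTH, against 7.59, 7.09 and 6.82 in Col-0 after BTH. The lower ends of all 9 intervals were below -0.5 in each of these comparisons. All 9 changes were below 0 in each, while 56% (mkk1) and 52.6% (mkk2) of those of all probe sets were above 0. With array weights ATG8A, ATG8G, ATG8H and ATG8I were called lower in mkk1, and ATG8A, ATG8B, ATG8C, ATG8G and ATG8H in mkk2. GAPDH 3-prime minus 5-prime was -0.04 to 0.23 in mkk1 and -0.07 to 0.19 in mkk2 after BTH, against 0.60 to 0.73 in Col-0 after BTH. With it as a covariate 0 of 9 were again called in each, while the change of ATG8H was -1.77 in mkk1 (adjusted p = 0.0658) and -1.54 in mkk2 (adjusted p = 0.0983), and that of ATG8B was 0.07 in mkk1 and -0.31 in mkk2 (adjusted p = 0.916 and 0.598).

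BTH was also compared with no treatment within each genotype. In Col-0, where this asks for the wild-type response, 0 of 9 members were called and 8.82% of all probe sets were called in either direction. For 9 members a count of 0 is close to that share. The median change was 0.32 for the members and -0.035 for all probe sets. Changes were above 0 for 6 of 9 members and for 43.9% of all probe sets. ATG8A had 9.85, 9.32 and 8.83 after BTH, against 8.94, 8.84 and 8.47 untreated, a change of 0.58 (interval 0.14 to 1.02, adjusted p = 0.101). ATG8D had 8.08, 7.64 and 7.53 after BTH, against 7.34, 7.15 and 7.13 untreated, a change of 0.54 (adjusted p = 0.105), with no overlap. ATG8E had 9.63, 9.42 and 8.53 after BTH, against 8.15, 8.60 and 8.86 untreated, a change of 0.66 (adjusted p = 0.147), with overlap through replicate C after BTH. These were the 3 members with an unadjusted p under 0.05, and without that replicate 2 members were called. ATG8H, at -0.42, ran the other way and was not called (adjusted p = 0.711). It was called lower with array weights and without the 3 arrays that stood apart (lowest adjusted p 0.0252 over the 31 settings). Array weights also called ATG8A, ATG8D and ATG8E higher (lowest adjusted p 0.00708, 0.00925 and 0.00288 over the 31 settings). With a replicate block in limma ATG8A was called higher (adjusted p = 0.0499).

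In mkk1, ATG8D rose by 0.75 ± 0.20 after BTH (1.68-fold, adjusted p = 0.0223), with 7.48, 7.86 and 7.41 after BTH against 6.92, 6.80 and 6.79 untreated. It was the only member called, 1 of 9 where 4.77% of all probe sets were called higher. All 9 changes were above 0, from 0.12 for ATG8C to 0.75 for ATG8D, the median was 0.55 against -0.01 for all probe sets, and 5 had an unadjusted p under 0.05. ATG8I had 10.26, 10.72 and 10.04 after BTH, against 9.28, 9.88 and 9.78 untreated, a change of 0.69 (adjusted p = 0.0627). The ATG8D call was lost without replicate B of mkk1 after BTH and without each of the 3 untreated mkk1 arrays, and 5 members were called without the 3 arrays that stood apart.

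In mkk2, ATG8D rose by 0.93 ± 0.20 (1.90-fold, adjusted p = 0.00351) and ATG8A by 0.78 ± 0.21 (1.72-fold, adjusted p = 0.0186). ATG8D had 7.35, 7.68 and 7.86 after BTH, against 6.29, 7.02 and 6.80 untreated. ATG8A had 8.93, 8.91 and 8.59 after BTH, against 8.05, 8.02 and 8.01 untreated. Neither gene's groups overlapped, nor did those of ATG8B, ATG8H and ATG8I, which were not called. The ATG8D call held in all 31 settings, and that of ATG8A was lost without replicate A or B of mkk2 after BTH and without replicate A or C of untreated mkk2. Thus 2 of 9 members were called higher, where 6.20% of all probe sets were, and the median change was 0.24 against -0.06 for all probe sets. ATG8D was the member with the largest change in both single mutants. GAPDH 3-prime minus 5-prime was lower after BTH, at -0.07 to 0.19 against 0.30 to 0.61 untreated in mkk2 and at -0.04 to 0.23 against 0.26 to 0.31 untreated in mkk1, and the calls of ATG8A and ATG8D were kept with it as a covariate.

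In mkk1/mkk2 BTH changed no member past the threshold. The count was 0 of 9, none with an unadjusted p under 0.05, and 0.334% of all probe sets were called in either direction. For 9 members a count of 0 is close to that share. Changes ran from -0.49 for ATG8B (interval -1.04 to 0.06) to 0.82 for ATG8H (interval -0.18 to 1.82), with a median of -0.14, and the adjusted p values were 0.442 to 0.959. The ATG8H change rested on replicate A of the untreated group and was -0.09 without it (adjusted p = 0.980).

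The responses themselves were also compared. For mkk1/mkk2 minus Col-0, 0 of 9 members differed in response, where 2.33% of all probe sets did in either direction. ATG8E at -0.88, ATG8A at -0.83, ATG8B at -0.83 and ATG8D at -0.68 had an unadjusted p under 0.05 and adjusted p values of 0.309, 0.191, 0.353 and 0.290, and the interval for ATG8A was -1.46 to -0.21. Without replicate C of Col-0 after BTH the difference for ATG8A was called (adjusted p = 0.0441). For mkk2 minus Col-0 the count was 0 of 9 (adjusted p = 0.9997 for each, none with an unadjusted p under 0.05), where 0.0220% of all probe sets were called. For mkk1 minus Col-0 it was 0 of 9 (adjusted p 0.594 to 0.998, none with an unadjusted p under 0.05), where 0% of all probe sets were called by limma, 2237 had an unadjusted p under 0.05 and 1539 were called with array weights. For 9 members each of these counts of 0 is close to its share. The width of the intervals differed between members. For ATG8H in mkk1 minus Col-0 the interval was -0.76 to 2.06, which includes a difference of a log2 unit. Its width rests on a spread shared by all 8 groups. That includes untreated mkk1/mkk2, which is outside this contrast and where ATG8H had 5.28, 7.67 and 8.37. How small a difference in response could be detected for this gene was not tested.

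**Figure D4:**
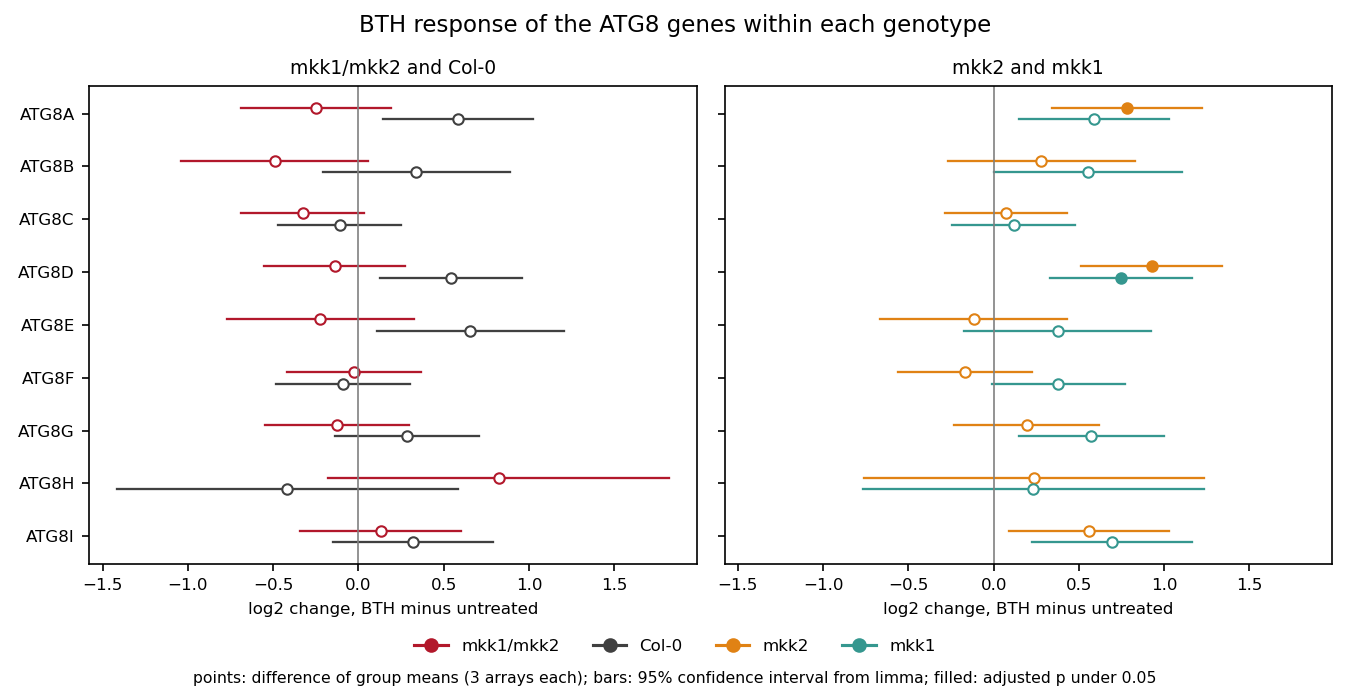
Log2 change of each ATG8 gene after BTH against no treatment, in mkk1/mkk2 and Col-0 (left) and in mkk2 and mkk1 (right). Points are differences of group means of 3 arrays, bars are 95% confidence intervals from limma and filled points have an adjusted p under 0.05, which only ATG8D in mkk2 and mkk1 and ATG8A in mkk2 reached.

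Of 38 other autophagy genes listed, 10 had a single-gene probe set, 6 of the ATG1 kinase complex that starts autophagosome formation, 1 of the lipid kinase complex (VPS38) and 3 of the machinery that conjugates ATG8 and ATG12 (ATG4B, ATG3 and ATG16). None of the ATG9, ATG2 and ATG18 group or of the cargo receptors was measured. In untreated mkk1/mkk2, 2 of 10 were higher and 0 lower than in Col-0, where 16.1% of all probe sets were higher. For 10 genes a count of 2 is close to that share, so it does not set these genes apart. ATG1A, a kinase subunit, averaged 8.56 ± 0.53 in mkk1/mkk2 and 7.18 ± 0.21 in Col-0 (SD, n = 3 each), a change of 1.38 ± 0.24 (SE, adjusted p = 0.000111). ATG101, another subunit of the complex, averaged 8.24 ± 0.65 in mkk1/mkk2 and 7.42 ± 0.09 in Col-0, a change of 0.82 ± 0.26 (adjusted p = 0.0178). After BTH 3 of 10 were higher and 0 lower, where 11.4% of all probe sets were higher, and 2 were called with the GAPDH covariate. ATG1A was higher by 1.09 ± 0.24 (adjusted p = 0.00195), ATG1B by 0.83 ± 0.21 (adjusted p = 0.00640) and ATG101 by 0.78 ± 0.26 (adjusted p = 0.0346). The median change of the 10 was 0.22 untreated and 0.38 after BTH. ATG3, the enzyme that hands ATG8 to its lipid, changed by 0.33 untreated (adjusted p = 0.314) and 0.49 after BTH (adjusted p = 0.159), and ATG4B, the processing protease, by 0.36 and 0.28 (adjusted p = 0.158 and 0.349). Without replicate A of untreated mkk1/mkk2, 5 of 10 were called higher in each of these comparisons. The count for untreated plants was 1 without replicate B or C of untreated mkk1/mkk2 and without replicate C of untreated Col-0. The only other call was ATG1T, lower by 0.54 in untreated mkk1 against Col-0 (adjusted p = 0.0164). This was 1 of 10 where 7.83% of all probe sets were lower, a count close to that share. That count was 0 with the GAPDH covariate, with dim probe sets left out, and without replicate A or C of untreated Col-0 or replicate A of untreated mkk1, and it was 2 without replicate A of untreated mkk1/mkk2 and without replicate A of Col-0 after BTH.

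Of 6 marker genes of tissues that were measured, SBPASE, PRK and PYK10 differed between untreated mkk1/mkk2 and Col-0, and SBPASE and PYK10 did so after BTH. Of 8 leaf markers 3 were measured, and their mean value was 10.84 to 11.92 in untreated mkk1/mkk2 and 11.34 to 11.42 after BTH. The mean was 11.93 to 12.62 in Col-0 without treatment and 11.52 to 12.56 in Col-0 after BTH. SBPASE and PRK, enzymes of the Calvin cycle, were lower in untreated mkk1/mkk2 by 1.72 (adjusted p = 7.00e-05) and 1.01 (adjusted p = 0.0376), and RCA, rubisco activase, changed by -0.17 (adjusted p = 0.648). Of 8 root markers 2 were measured, with means of 6.33 to 6.88 in untreated mkk1/mkk2, 6.38 to 6.85 in mkk1/mkk2 after BTH and 5.88 to 6.40 in untreated mkk1. Col-0 had 4.13 to 4.79 without treatment and 3.79 to 5.66 after BTH. Of the 2, PYK10, a beta-glucosidase of ER bodies, was higher by 4.35 in untreated mkk1/mkk2 (adjusted p = 0.000891), 4.08 in mkk1/mkk2 after BTH (adjusted p = 0.00262) and 3.30 in untreated mkk1 (adjusted p = 0.0173). EXPA7, the root hair expansin, changed by -0.01 in untreated mkk1/mkk2 (adjusted p = 0.989). Of 6 markers of dividing cells only the histone gene HTB1 was measured, and among the 13 comparisons it passed only as lower by 1.38 after BTH in mkk1 (adjusted p = 0.0158). The part of these markers in the ATG8 results was not tested.

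Across the 24 arrays the members varied together. Pearson's r between 2 members ranged from 0.575 to 0.949 over the 36 pairs, with a median of 0.783 and none below 0, and was highest for ATG8A with ATG8D (0.949) and ATG8A with ATG8B (0.942). These arrays share their groups. After subtraction of the group means r ranged from -0.454 to 0.870, with a median of 0.357 and 6 pairs below 0. The closest pairs were then ATG8A with ATG8C (0.870) and the small clade of ATG8H with ATG8I (0.847), and the most opposed pair was ATG8B with ATG8H (-0.454), the genes that parted most on replicate A of untreated mkk1/mkk2.

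Among 6280 single-gene probe sets with an SD of at least 0.3 over the arrays, the patterns most like the mean of the 9 ATG8 genes over the 24 arrays were those of AT1G71950 (r = 0.955), AT3G14280 (0.951), AT2G41250 (0.946), AT1G02470 (0.941) and AT5G19875 (0.940). For single members the closest were AT1G71950 for ATG8A (0.976), AT2G17710 for ATG8B (0.962), AT2G24040 for ATG8C (0.941), AT1G77370 for ATG8D (0.965) and AT4G14270 for ATG8E (0.918). ATG8F had the least close neighbour, AT5G43440 (0.864), and ATG8G had AT3G23605 (0.932). ATG8H was closest to AT1G35190 (0.962), with PAHX (AT2G01490) next at 0.954, and ATG8I was closest to AT4G23880 (0.953). These correlations share the same arrays and groups and are given as descriptions.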

How the data were processed

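RNA of whole plants was extracted with Trizol, amplified and labelled with biotin, per the labels' protocols. The authors deposited log2 values made with RMA, per the submitters' processing notes, and the version is not given in the sources used here. The table held 22810 probe sets. The 64 controls served as quality measures and the other 22746 were tested unfiltered. No 2 arrays were identical (0 pairs). Depth does not apply to arrays, and 3 arrays a group limit the precision.

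Probe sets were named through the array annotation and RefSeq's genes. A single gene was given for 13513 probe sets, several for 503 and none for 8730. Each of 13 comparisons was a contrast in a model of the 8 groups, with all 24 arrays in the fit (limma 3.58.1, lmFit and eBayes) under R 4.3.3, with Benjamini-Hochberg adjustment over 22746 probe sets. Calls had an adjusted p under 0.05. The test was checked on simulated data of independent normal values. These held no array that stood apart, so the check does not cover such arrays. All 9 members were named, with called members of the other lists and the genes most alike by Pearson's r. Members and lists were chosen with earlier results of these data known. The 3 arrays that stood apart had the lowest mean correlation with their own group.

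As a check of the replicate letters in the titles, deviations from group means of same-letter arrays had r of -0.393 to 0.606 (median 0.04) over 84 array pairs. Only for BTH against no treatment in mkk1/mkk2 did all 3 letters exceed 0.1 (0.305, 0.287 and 0.170), and the letters were not taken to pair the other groups. For letters A, B and C the same comparison had r of 0.358, 0.009 and 0.376 in Col-0. It had -0.062, 0.606 and 0.316 in mkk2, and 0.021, 0.003 and -0.010 in mkk1. Whether the letters pair the Col-0 arrays is thus not settled. The 31 alternative settings were 24 fits leaving out an array, a replicate block, no arrays that stand apart, array weights, the compared groups only, arrays centred on their medians, dim probe sets left out and a GAPDH covariate.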

Additional observations from a re-analysis of the deposited data

How the results depend on the processing

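No change of an ATG8 gene that was called changed sign. Array weights were run with the gene-by-gene algorithm, chosen after seeing the data because the default did not converge, and weighted replicate A of untreated mkk1/mkk2 at 0.0826. Averaging probe sets per gene was not run, since each member has 1. The causes of the shifts below were not tested.

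For the ATG8 genes, array weights gave 4 calls for BTH in Col-0 (ATG8H lower, the others higher) and 5 for BTH in mkk1. They gave 1 for the response of mkk1/mkk2 minus Col-0, 4 for mkk1 and 5 for mkk2 against Col-0 after BTH, and 7 for untreated mkk2 against Col-0. Without the 3 arrays that stand apart the counts were 1 for BTH in Col-0 (ATG8H, lower), 5 for BTH in mkk1 and 5 for untreated mkk2. With the compared groups alone they were 3 for BTH in mkk1 and 0 for untreated mkk2, where 7 members had an unadjusted p under 0.05 in limma with all groups. Median centring and the removal of dim probe sets gave 2 for BTH in mkk1, and the GAPDH covariate gave 3 for untreated mkk1. The replicate block gave 1 for BTH in Col-0 (ATG8A, adjusted p = 0.0499) and 2 for BTH in mkk1 (with ATG8A, adjusted p = 0.0463), changed no other ATG8 call, BTH in mkk1/mkk2 included (0 of 9), and 0 probe sets in all for the response of mkk2 minus Col-0.

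When each array was left out in turn, the ATG8 counts ranged from 0 to 2 for BTH in Col-0, 0 to 3 in mkk1, 1 to 3 in mkk2, 0 to 1 for the response of mkk1/mkk2 minus Col-0, 0 to 1 for mkk1 and 0 to 2 for mkk2 against Col-0 after BTH, 0 to 6 for untreated mkk1, 0 to 5 for untreated mkk2, and 3 to 5 after BTH and 4 to 7 untreated for mkk1/mkk2.

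Counts over all probe sets moved more. BTH in Col-0 (2006) gave 7769 with weights and 3693 without the 3 arrays, and 1241 to 3158 leaving out an array. BTH in mkk1 (1950) gave 4349 with weights, 4158 without the 3, 3747 with the compared groups and 897 to 3120 leaving out an array. BTH in mkk2 (2444) gave 5248, 4250 and 1600 to 3578 with weights, without the 3 and leaving out an array. BTH in mkk1/mkk2 (76) gave 23 with GAPDH, 37 centred, 13 without dim probe sets, 0 with the compared groups, 115 without the 3 and 31 to 181. The response of mkk1 minus Col-0 (0) gave 1539 with weights, 1 centred, 5 without the 3 and 0 to 28. That of mkk2 minus Col-0 (5) gave 8 with GAPDH, 382 with weights, 2 with the compared groups, 0 without the 3 and 0 to 26. That of mkk1/mkk2 minus Col-0 (531) gave 1710 with weights, 258 with the compared groups, 1083 without the 3 and 345 to 889. After BTH, mkk1 against Col-0 (141) gave 4111 with weights, 90 without dim probe sets, 16 with the compared groups, 302 without the 3 and 8 to 1215. After BTH, mkk2 against Col-0 (417) gave 5989 with weights, 703 without the 3 and 70 to 1470, and mkk1/mkk2 (4918) gave 9417 with weights and 3770 to 6351. Untreated, mkk1 (3931) gave 7721 with weights, 6643 without the 3 and 1745 to 5626. Untreated mkk2 (1736) gave 4542 with weights, 0 with the compared groups, 2810 without the 3 and 341 to 3345, and untreated mkk1/mkk2 (7573) gave 4183 with the compared groups and 6351 to 8208.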

Other observations

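Genes of leaf senescence and of the salicylic acid response were measured only in part, 3 of 11 and 2 of 7. WRKY6, a transcription factor active in senescing leaves, averaged 7.61 ± 0.10 in untreated mkk1/mkk2 and 5.52 ± 0.63 in untreated Col-0 (SD, n = 3 each), which is 4.28-fold higher (limma, adjusted p = 4.34e-06). SAG101, a lipase-like partner of EDS1 in immunity named for its senescence association, averaged 6.39 ± 0.69 in untreated mkk1/mkk2 and 4.83 ± 0.34 in untreated Col-0 (adjusted p = 0.000273). Both were also higher in mkk1/mkk2 than in Col-0 after BTH, by 2.81 and 1.22 (adjusted p = 2.12e-07 and 0.00420), and SAG101 rose by 0.95 after BTH in mkk2 (adjusted p = 0.0415). WRKY53 was not called in any of the 13 comparisons.

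The chitinase gene CHI and the glutaredoxin gene GRX480, which salicylic acid induces, were also followed. Both rose after BTH in Col-0 (by 4.29 and 3.63), mkk1 (3.14 and 3.03) and mkk2 (4.88 and 2.83), with adjusted p values of at most 3.31e-07. Neither was called in mkk1/mkk2. Without treatment they were higher in mkk1/mkk2 than in Col-0, by 6.85 and 4.45 (adjusted p = 1.04e-12 and 2.50e-11), and their BTH response in mkk1/mkk2 differed from that of Col-0 by -3.62 and -4.03 (adjusted p = 1.88e-05 and 4.53e-07).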
